A study of Mus musculus with 8 samples.

Results

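A set of 8 transcripts that heart muscle cells are known to raise under stretch was followed in infarcted and sham-operated mouse hearts with and without MAFbx: Sprr1a, the muscle ankyrin repeat genes Ankrd1, Ankrd2 and Ankrd23, the Xin-repeat genes Xirp1 and Xirp2, the LIM-domain gene Csrp3 and the filamin gene Flnc. They were taken by gene symbol from a list, not by a threshold on measured values. The list was chosen with earlier results of these data known. All 8 were found, each with 1 probe set, among 19938 genes tested. Strain and repair themselves were not measured, so the list is a set of genes with a known role and not a readout of stretch. Total RNA of hearts was read on Affymetrix Mouse Gene ST arrays. The groups were hearts of MAFbx knockout mice (KO) 1 day after the left coronary artery was tied off to produce a myocardial infarction (MI), KO hearts after sham surgery, wild-type (WT) hearts 1 day after MI, and WT hearts after sham surgery. Each group held 2 arrays. MAFbx, also called atrogin-1, is the muscle ubiquitin ligase encoded by Fbxo32. The labels give neither the deleted part of the gene, nor the strain, age or sex of the mice, nor the time after sham surgery. They do not say whether paired arrays stem from different mice. The error behind each p-value comes from the 2 samples within each group, pooled over the 4 groups, and could therefore be technical.

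Heart muscle cells sense load at the Z-disc and at the intercalated disc, where thin filaments are anchored. The ankyrin repeat proteins bind the N2A stretch of the spring protein titin, and Ankrd1 also acts in the nucleus as a transcriptional cofactor. Ankrd2 is best known from stretched skeletal muscle, and Ankrd23 is the third member of the family. Xin proteins bind and stabilise actin at the intercalated disc and, together with filamin C, mark damaged stretches of the myofibril. Csrp3, or muscle LIM protein, is a Z-disc protein whose loss causes dilated cardiomyopathy in mice. Flnc crosslinks actin and is the filamin of striated muscle. Sprr1a is a structural protein of the keratinocyte envelope that cardiomyocytes also make after stress, downstream of cytokines that signal through gp130.

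The DNA just before the transcript starts is shown for the member with the largest rise, for the 3 ankyrin repeat paralogs, which responded unequally, and for Xirp2, the member with a match to a box for the muscle factor MEF2. Sequences and starts are from RefSeq on build GRCm38.p6, at chr3:92485882-92486131, minus strand for Sprr1a, chr19:36119845-36120094, minus strand for Ankrd1, chr19:42035777-42036026, plus strand for Ankrd2, chr1:36536557-36536806, minus strand for Ankrd23 and chr2:67445752-67446001, plus strand for Xirp2. Each line runs 5′ to 3′ on the gene's own strand, covers 250 bases and ends at the base before the start. Capitals mark matches to the motifs searched on both strands, which were 5. The MCAT motif of TEAD factors is spelled CATTCC. The AP-1 motif is spelled TGANTCA. The motif of GATA factors is spelled AGATAA. The MEF2 box and the CArG box of serum response factor were searched too.
Sprr1a: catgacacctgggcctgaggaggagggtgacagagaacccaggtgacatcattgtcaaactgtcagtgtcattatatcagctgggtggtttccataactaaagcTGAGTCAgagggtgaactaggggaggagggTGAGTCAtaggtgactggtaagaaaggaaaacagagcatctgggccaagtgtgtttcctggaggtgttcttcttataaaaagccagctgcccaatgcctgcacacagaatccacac
Ankrd1: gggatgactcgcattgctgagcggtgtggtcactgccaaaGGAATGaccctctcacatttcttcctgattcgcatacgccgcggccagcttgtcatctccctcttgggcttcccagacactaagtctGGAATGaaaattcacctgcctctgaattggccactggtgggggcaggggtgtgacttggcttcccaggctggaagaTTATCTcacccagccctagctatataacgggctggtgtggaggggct
Ankrd2: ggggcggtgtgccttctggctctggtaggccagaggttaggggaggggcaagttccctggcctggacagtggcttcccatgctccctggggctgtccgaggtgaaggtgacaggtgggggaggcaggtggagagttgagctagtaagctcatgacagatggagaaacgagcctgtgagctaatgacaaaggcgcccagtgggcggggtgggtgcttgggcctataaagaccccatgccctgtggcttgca
Ankrd23: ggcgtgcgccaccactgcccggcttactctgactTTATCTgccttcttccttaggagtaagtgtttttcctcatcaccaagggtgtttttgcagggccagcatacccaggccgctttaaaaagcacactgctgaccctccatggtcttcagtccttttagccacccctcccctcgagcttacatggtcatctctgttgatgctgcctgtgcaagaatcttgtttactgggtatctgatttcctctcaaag
Xirp2: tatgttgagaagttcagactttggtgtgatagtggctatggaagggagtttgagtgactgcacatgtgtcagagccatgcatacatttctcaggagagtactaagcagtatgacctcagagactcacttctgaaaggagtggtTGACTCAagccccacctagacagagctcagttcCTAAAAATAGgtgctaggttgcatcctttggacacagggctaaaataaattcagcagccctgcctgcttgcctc
Sprr1a held 2 AP-1 matches, at 146 to 140 and at 116 to 110 bases before the start. Ankrd1 held MCAT matches at 210 to 205 and at 123 to 118 bases and a GATA match at 47 to 42 bases, all 3 on the opposite strand, so that the capitals read as the reverse complement. Ankrd2 held none of the 5 motifs in this window. The annotated Ankrd2 gene begins at chr19:42035917, inside the window, so the last part of the window lies within the gene. Ankrd23 held a GATA match at 216 to 211 bases before the start shown and an MCAT match at 120 to 115 bases before its other one. Xirp2 held an AP-1 match at 107 to 101 bases and a MEF2 box at 74 to 65 bases before the start. Flnc had an MCAT match at 104 to 99 bases before 1 of its 2 starts, Csrp3 had no match before either of its 2 starts, and Xirp1 was not matched to a promoter. No matches overlapped each other. Over all 7 members with a promoter, counting a match before any start, MCAT was found in 3, AP-1 in 2, GATA in 2, the MEF2 box in 1 and the CArG box in 0. Among 32536 promoter windows of the same length, 12.6% held MCAT, 6.73% AP-1, 9.97% GATA, 2.89% the MEF2 box and 1.48% the CArG box. These shares are per window, and a member with 2 starts had 2 windows, so the counts and shares are not in the same unit. The matches describe letters only, and binding was not measured.

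**Figure D1:**
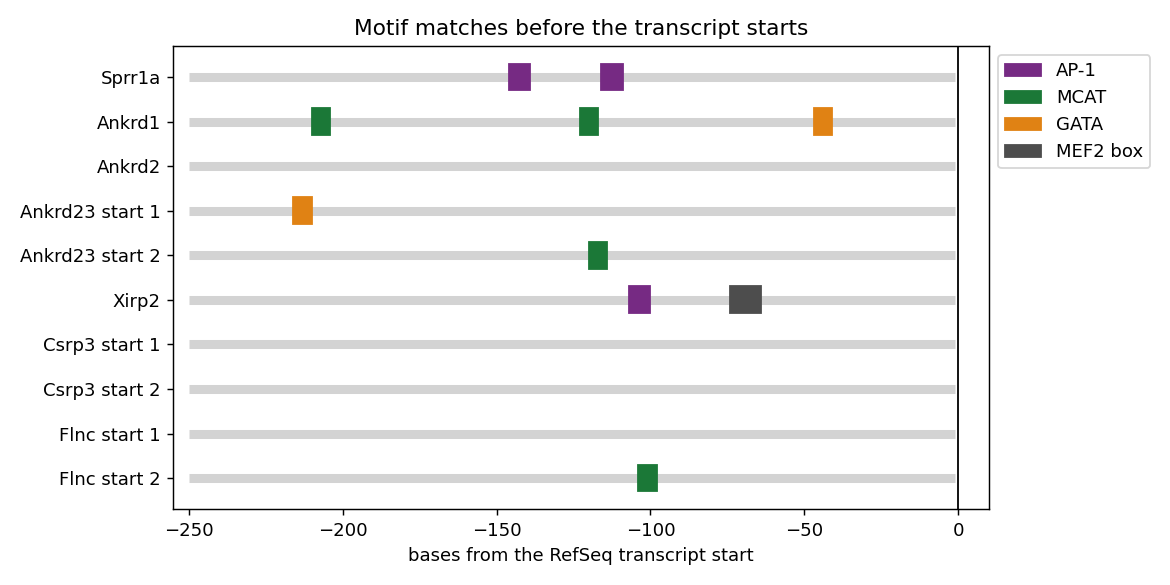
Positions of motif matches in the 250 bases before each RefSeq transcript start of the 7 members with a promoter, in bases from the start (vertical line at 0). Coloured blocks are MCAT, AP-1, GATA and MEF2 box matches; Ankrd2 and Csrp3 have none.

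Fbxo32 was low on every KO array, with log2 signals of 5.14 and 5.46 in KO MI and 4.68 and 5.17 in KO sham, against 8.35 and 8.21 in WT MI and 8.76 and 8.79 in WT sham. Of 16 cardiomyocyte markers, which define the labelled tissue, the mean log2 signal lay between 12.85 and 13.11 on all 8 arrays. The first principal component, with 73.9% of the variance, separated the 4 MI arrays from the 4 sham arrays. On the second, with 8.56%, WT MI replicate 2 scored -20.2 (the other WT MI array 0.6) and KO sham replicate 1 scored -21.2 (the other KO sham array 15.3), and the counts of the 8 genes past the adjusted threshold were also made without both arrays.

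Infarction was accompanied by higher signals of 7 of the 8 genes in KO hearts and of the same 7 in WT hearts. The comparisons share no arrays, but their tests share a single estimate of each gene's spread from all 8 arrays. Ankrd23 alone missed the threshold in both. The test was limma's moderated test on the log2 values, with Benjamini-Hochberg adjustment over all genes and a threshold of 0.05. Beside the 7 calls among the 8 genes in KO MI against KO sham, all of them rises, 20.8% of all genes were called, 10.5% as rises and 10.3% as falls. Beside the 7 rises in WT MI against WT sham, 28.1% of all genes were called, 12.3% as rises and 15.8% as falls. Both KO MI arrays lay above both KO sham arrays for 7 of the 8 and below them for 1, against 28.1% and 27.5% of all genes. Both WT MI arrays lay above both WT sham arrays for all 8 and below them for 0, against 35% and 31.6% of all genes. The median log2 fold change of the 8 genes was 1.32 in KO and 1.37 in WT hearts, against 0.01 and 0.04 over all genes. Because the 8 were chosen with earlier results of these data known, the contrasts with all genes are not independent support. In 6 of the 7 the rise was at least 2-fold in both genotypes, and Csrp3 was the exception. The 7 rises were also called without both KO sham replicate 1 and WT MI replicate 2. The WT count was 6 in the 9 of 19 alternatives in which Csrp3 missed the threshold, named with that gene, and the KO count was 6 in 1. In a whole heart, a change in the share of muscle cells and a change in RNA per cell cannot be told apart.

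**Figure D2:**
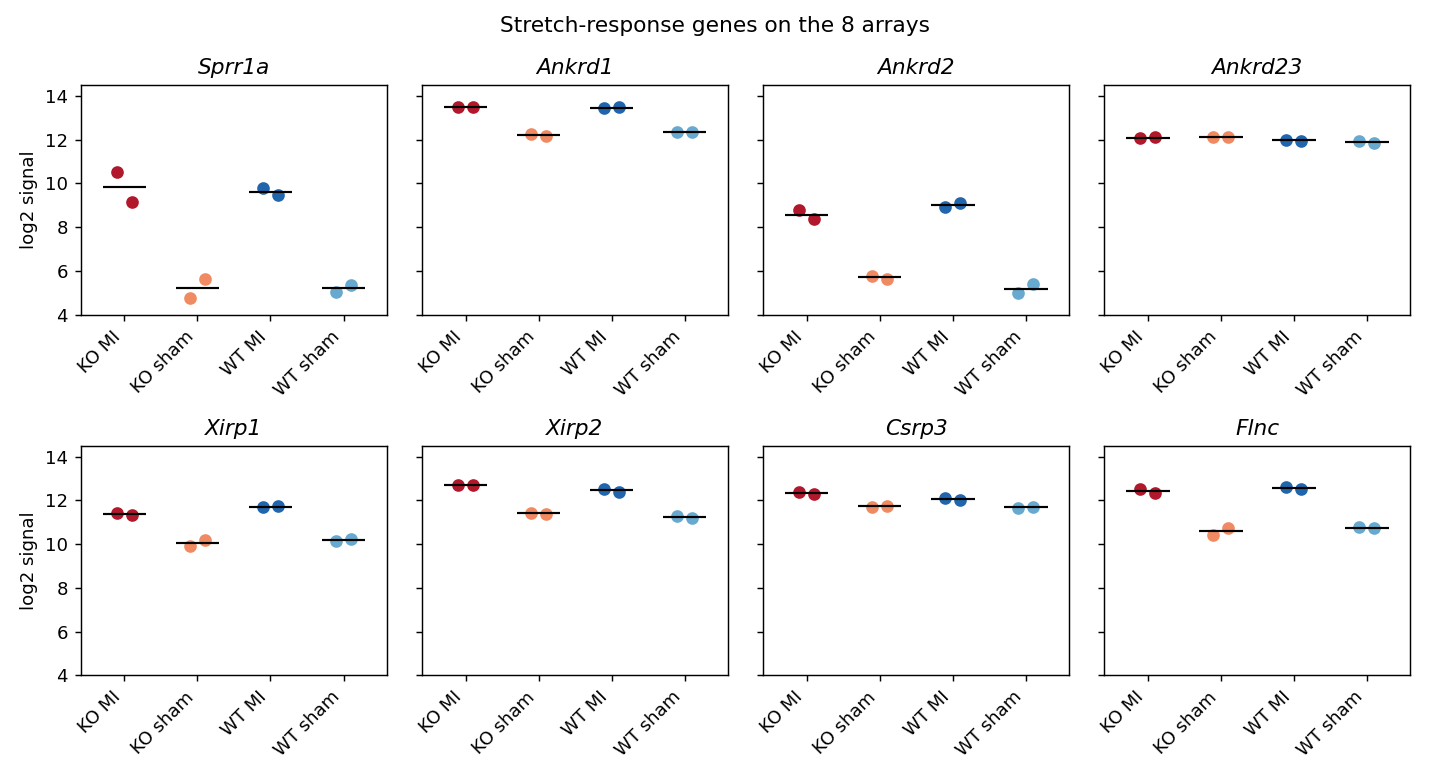
Log2 signal of each gene on the 8 arrays, 2 arrays per group, with the group mean as a horizontal line and 1 scale for all panels. Sprr1a and Ankrd2 move most between MI and sham, while the 8 Ankrd23 points lie within 0.283 of each other.

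Sprr1a showed the largest change of the 8. Its log2 signal was 10.53 and 9.15 in KO MI hearts, against 4.78 and 5.64 in KO sham hearts. In WT MI hearts it was 9.79 and 9.45, against 5.05 and 5.38 in WT sham hearts. The MI and sham arrays were far apart in both genotypes, and the KO MI pair differed from each other more than any other pair of the gene (SD 0.98, n = 2). Sprr1a rose 24.7-fold in KO hearts (log2 fold change 4.62, 95% interval 3.72 to 5.53, limma adjusted p = 7.03e-05) and 21.2-fold in WT hearts (4.41, interval 3.50 to 5.31, adjusted p = 5.42e-05). The KO value rested on unequal arrays, with a log2 fold change of 3.93 without KO MI replicate 1 and 5.32 without KO MI replicate 2, both past the threshold. Sprr1a was the gene with the 7th largest log2 fold change of all genes tested in KO hearts and the 24th largest in WT hearts. In sham hearts its signal lay below the median gene of the array (5.75 to 5.81), where detection was not tested, so the size of the fold is uncertain.

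Sprr1a lies in a family of epidermal genes, and 12 of 13 listed relatives were measured. None of them rose in KO MI hearts, and Sprr1b alone rose in WT MI hearts (log2 fold change 0.82, adjusted p = 0.048; in KO 0.68, adjusted p = 0.112). The mean log2 signal of the 12 lay between 3.34 and 3.67 on all arrays. Of 10 measured keratinocyte markers, 1 rose in KO MI hearts and 4 in WT MI hearts, with mean signals of 4.51 on both KO MI arrays, 4.33 and 4.14 in KO sham, 4.56 and 4.77 in WT MI and 4.24 and 4.23 in WT sham. The marker that rose in both was Sfn, an epithelial 14-3-3 protein (3.2-fold in KO and 2.76-fold in WT). The keratin genes Krt1, Krt5, Krt10 and Krt14 had group means between 3.45 and 5.15 in all 4 groups. Krt5 and the envelope gene Ivl were, with Sprr1b, the other markers that rose in WT MI hearts (1.71-fold and 1.36-fold for Krt5 and Ivl, adjusted p = 0.0342 and 0.0225). Krt5 read 4.40 and 5.15 on WT MI replicates 1 and 2, against 3.98 and 4.02 in WT sham and 4.49 and 4.02 in KO sham hearts. Its WT MI arrays were thus unequal, and all these signals lay below the median gene of the array. The part of the keratinocyte markers in the Sprr1a values was not tested.

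Among the ankyrin repeat genes, Ankrd2 rose most. Its log2 signal was 8.78 and 8.37 in KO MI hearts, against 5.79 and 5.65 in KO sham hearts. In WT MI hearts it was 8.92 and 9.08, against 4.99 and 5.39 in WT sham hearts. The order of the groups was therefore WT MI, KO MI, KO sham and WT sham, with no overlap between neighbours. Ankrd2 rose 7.24-fold in KO hearts (log2 fold change 2.86, interval 2.46 to 3.26, adjusted p = 9.4e-06) and 14.0-fold in WT hearts (3.81, interval 3.41 to 4.21, adjusted p = 1.18e-06). It ranked 65th of all genes by log2 fold change in KO and 42nd in WT hearts. As with Sprr1a, the sham signal was near or below the median gene of the array. Of 12 markers of skeletal muscle, where Ankrd2 is also expressed, 1 rose in KO MI hearts, and 2 rose and 2 fell in WT MI hearts. Their mean log2 signals were 6.19 and 6.25 in KO MI, 6.09 and 5.96 in KO sham, 6.41 and 6.44 in WT MI and 6.42 and 6.32 in WT sham hearts. The riser in KO was Acta1, which the heart also expresses, and those in WT were the fast-fibre genes Actn3 (1.43-fold, adjusted p = 0.00848) and Tnni2 (1.49-fold, adjusted p = 0.0119). Those that fell in WT were Ckm, also a listed cardiomyocyte marker (-0.46, adjusted p = 0.0282), and Myot (-0.49, adjusted p = 0.0357). The other fast-fibre genes, Myh1, Myh2, Myh4, Tnnt3, Tnnc2, Mylpf and Atp2a1, were not called in either genotype. The part of the skeletal muscle markers in the Ankrd2 values was not tested.

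Ankrd1, one of the highest signals on these arrays, read 13.49 and 13.47 in KO MI hearts, against 12.24 and 12.17 in KO sham hearts. In WT hearts it read 13.45 and 13.48 after MI, against 12.33 and 12.36 after sham surgery. The SD within a group was at most 0.05 (n = 2 each), and the MI and sham arrays did not overlap. Ankrd1 rose 2.43-fold in KO hearts (log2 fold change 1.28, interval 1.02 to 1.53, adjusted p = 7.64e-05) and 2.17-fold in WT hearts (1.12, interval 0.86 to 1.37, adjusted p = 0.000102). Its signals lay between percentiles 99.5 and 100 of the genes on an array, where saturation was not tested. The size of its fold and of its differences between genotypes is therefore uncertain.

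Ankrd23 stayed short of the threshold. It read 12.06 and 12.11 in KO MI hearts, against 12.12 and 12.14 in KO sham hearts. In WT MI hearts it read 12.00 and 11.94, against 11.92 and 11.86 in WT sham hearts. The differences were small and of opposite sign, -0.05 in KO (interval -0.30 to 0.21, adjusted p = 0.837) and 0.08 in WT (interval -0.18 to 0.34, adjusted p = 0.648). Both intervals lay wholly below those of Ankrd1 and Ankrd2 in the same genotype.

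The Xin-repeat genes rose by similar amounts. Xirp1 read 11.42 and 11.35 in KO MI hearts, against 9.91 and 10.18 in KO sham hearts, and 11.69 and 11.73 in WT MI hearts, against 10.15 and 10.22 in WT sham hearts. Xirp1 rose 2.53-fold in KO (log2 fold change 1.34, interval 1.05 to 1.63, adjusted p = 0.000133) and 2.88-fold in WT hearts (1.53, interval 1.23 to 1.82, adjusted p = 3.69e-05). Xirp2 read 12.71 on both KO MI arrays, against 11.43 and 11.39 in KO sham hearts, and 12.54 and 12.37 in WT MI hearts, against 11.29 and 11.20 in WT sham hearts. Its rise was 2.46-fold in KO (log2 fold change 1.30, interval 1.03 to 1.57, adjusted p = 9.97e-05) and 2.31-fold in WT hearts (1.21, interval 0.94 to 1.48, adjusted p = 9.09e-05). For both genes every MI array lay above every sham array.

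Flnc read 12.52 and 12.36 in KO MI hearts, against 10.43 and 10.73 in KO sham hearts. In WT MI hearts it read 12.63 and 12.52, against 10.77 and 10.73 in WT sham hearts. Every MI array lay above every sham array of its genotype. Flnc rose 3.62-fold in KO (log2 fold change 1.86, interval 1.55 to 2.17, adjusted p = 2.6e-05) and 3.54-fold in WT hearts (1.82, interval 1.51 to 2.14, adjusted p = 1.89e-05). Among its relatives, the widely expressed filamin Flna rose 1.95-fold in KO and 1.67-fold in WT hearts (adjusted p = 0.00609 and 0.0162), intervals 0.54 to 1.39 and 0.32 to 1.17 on the log2 scale.

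Csrp3 had the smallest rise. It read 12.41 and 12.28 in KO MI hearts, against 11.71 and 11.74 in KO sham hearts. In WT MI hearts it read 12.13 and 12.00, against 11.65 and 11.72 in WT sham hearts. Csrp3 rose 1.53-fold in KO (log2 fold change 0.62, interval 0.35 to 0.89, adjusted p = 0.00575) and 1.30-fold in WT hearts (0.38, interval 0.11 to 0.65, adjusted p = 0.0421). The WT call was close to the threshold. The adjusted p became 0.212 and 0.141 when WT sham replicate 1 or 2 was left out, 0.154 and 0.0678 when WT MI replicate 1 or 2 was, and 0.062 when either KO MI array was. The call was also lost with each array centred on its median (0.0628), with the 2 WT groups alone (0.0503) and with the replicate number as a block (0.0609), and the range over all alternatives was 0.00601 to 0.212. In KO hearts, leaving out KO MI replicate 1 ended the call (adjusted p = 0.0553), and the alternatives spanned 0.000399 to 0.0553.

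The LIM-domain relatives of Csrp3 split. Fhl1, which binds titin and is induced in hypertrophy, rose 4.88-fold in KO and 5.62-fold in WT hearts (adjusted p = 5.31e-06 and 1.71e-06). Lmcd1, a LIM protein linked to calcineurin signalling, rose 5.74-fold in KO and 5.90-fold in WT hearts (adjusted p = 1.4e-05 and 7.93e-06). Fhl2 fell by 0.61 on the log2 scale in WT MI hearts (adjusted p = 0.00452) and differed by -0.25 in KO MI hearts (adjusted p = 0.205). Csrp1, the smooth muscle paralog, fell by 0.48 in WT MI hearts (adjusted p = 0.0152) and differed by -0.13 in KO MI hearts (adjusted p = 0.545). Csrp2 and Crip2 did not pass in either genotype, with log2 fold changes of 0.47 and 0.14 in KO and -0.16 and -0.05 in WT hearts. With Flna, 3 of the 7 measured filamin and LIM relatives rose in each genotype, and 0 fell in KO and 2 in WT hearts.

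**Figure D3:**
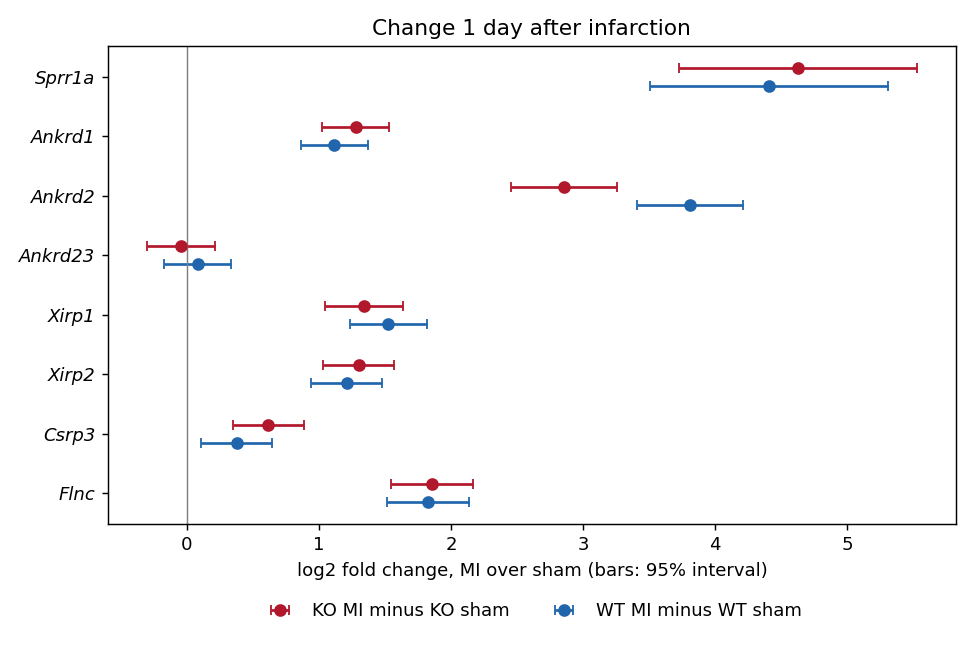
Log2 fold change of MI over sham for each gene with its 95% interval from the fit over 8 arrays, KO hearts in red and WT hearts in blue. The intervals of KO and WT overlap for every gene except Ankrd2, and those of Ankrd23 include 0.

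The second set of comparisons asked whether loss of MAFbx shifted these genes. After infarction 0 of the 8 passed between KO MI and WT MI, where 0.0702% of all genes did (0.0301% as rises and 0.0401% as falls). At an unadjusted limma p under 0.05 there were 3, namely Ankrd2, Xirp1 and Csrp3, beside 11.7% of all genes. Between KO sham and WT sham hearts 0 of 8 passed, where 0.0301% of all genes did (0.00502% as rises and 0.0251% as falls), and 1, Ankrd2, had an unadjusted p under 0.05, beside 5.1% of all genes. Averaged over both conditions 0 of 8 passed (0.0552% of all genes did, 0.0251% as rises and 0.0301% as falls), and 2 had an unadjusted p under 0.05, beside 7.27% of all genes. They were Xirp1, at -0.23 (interval -0.44 to -0.02, adjusted p = 0.677), and Xirp2, at 0.21 (interval 0.03 to 0.40, adjusted p = 0.658). Neither the 0 counts nor the p-values show that the genotypes are alike, and the intervals below give the differences that the 2 arrays a group allow.

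After infarction Ankrd2 differed by -0.43 between KO MI and WT MI hearts on the log2 scale (interval -0.83 to -0.03, adjusted p = 0.398). Xirp1 differed by -0.32 (interval -0.61 to -0.03, adjusted p = 0.385), and Csrp3 by 0.28 (interval 0.01 to 0.55, adjusted p = 0.408). The arrays of these 3 did not overlap between the genotypes, nor did those of Xirp2 (0.26, interval -0.01 to 0.53, adjusted p = 0.449) and Ankrd23 (0.11, interval -0.14 to 0.37, adjusted p = 0.76). That makes 3 genes with higher and 2 with lower KO MI arrays, where 24.2% of all genes lay apart upward and 20.2% downward. Ankrd1, whose KO MI and WT MI arrays overlapped, differed by 0.02 (interval -0.23 to 0.27), and Flnc by -0.14 (interval -0.45 to 0.18). For Sprr1a the difference was 0.22 with an interval of -0.68 to 1.12, and it turned to -0.47 without KO MI replicate 1.

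In sham hearts Ankrd2 was the member that differed most, by 0.53 between KO sham and WT sham (interval 0.13 to 0.93, adjusted p = 0.804). Ankrd23 followed with 0.24 (interval -0.02 to 0.50, adjusted p = 0.996). Ankrd2, Ankrd23 and Xirp2 had both KO sham arrays above both WT sham arrays, and Ankrd1 and Flnc had both below, with no minimum gap required, where 16.6% and 16.1% of all genes lay apart upward and downward. For Flnc the nearest KO sham and WT sham arrays were equal to 2 decimals (10.73). The other differences lay between -0.17 and 0.17, among them Sprr1a at -0.0010 (interval -0.90 to 0.90).

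**Figure D4:**
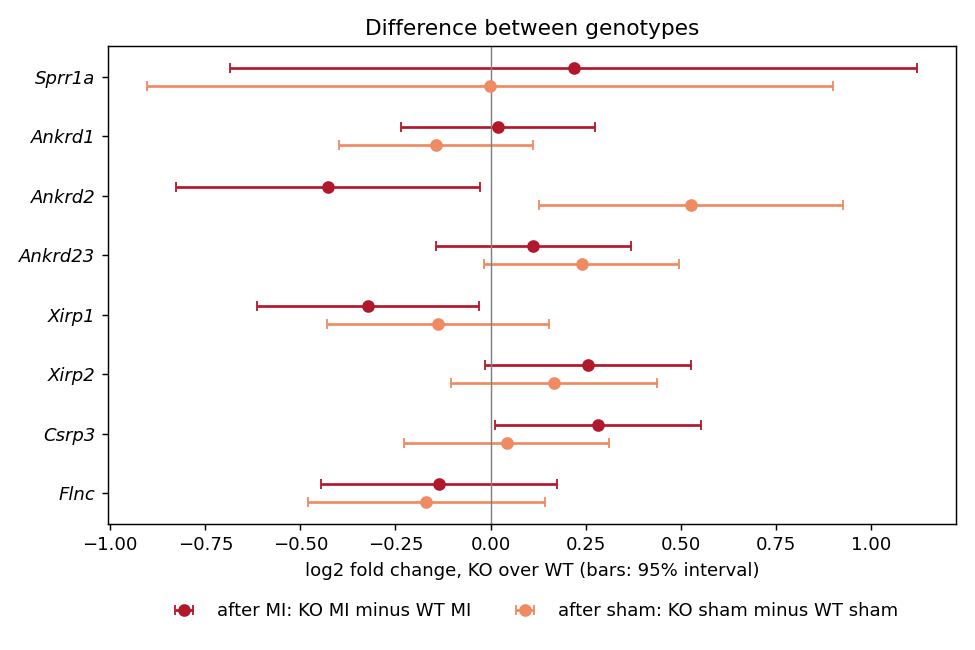
Log2 fold change of KO over WT for each gene with its 95% interval, after MI in red and after sham surgery in orange. Ankrd2 lies above 0 in sham hearts and below 0 after MI, and no gene passed the adjusted threshold in either condition.

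Whether the response to infarction differed between genotypes was tested as the KO response minus the WT response. None of the 8 passed by limma, nor did any of the 19938 genes (0% called), and 1 of the 8 and 8.21% of all genes had an unadjusted p under 0.05. That member was Ankrd2. Its KO and WT signals differed by 0.53 in sham hearts and by -0.43 after MI, and its sham signals were near or below the median gene of the array. The response of Ankrd2 was smaller in KO than in WT hearts by 0.95 on the log2 scale (difference -0.95, interval -1.52 to -0.39, unadjusted p = 0.00386, adjusted p = 0.474). Over all alternatives this difference lay between -1.16 and -0.75, with adjusted p values of 0.152 to 0.905. The differences of the other 7 lay between -0.18 for Xirp1 and 0.24 for Csrp3, with intervals that all included 0. The narrowest was that of Ankrd1 (0.16, interval -0.20 to 0.52), and the widest that of Sprr1a (0.22, interval -1.06 to 1.496).

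Lists of genes around the 8 were set beside them. For these, for the lists of relatives and for the marker lists, the shares of all genes called serve as background. In KO MI hearts 10.5% of all genes were called as rises and 10.3% as falls. In WT MI hearts these shares were 12.3% and 15.8%. Of 8 measured partners of titin N2A and the ankyrin repeat proteins, 1 rose and 2 fell in KO MI hearts, and 0 rose and 2 fell in WT MI hearts. Titin itself (Ttn) fell by 0.63 in KO and by 0.71 in WT hearts on the log2 scale (adjusted p = 0.0158 and 0.00629). The Z-disc protein gene Ldb3 fell by 0.63 in KO and by 0.84 in WT hearts (adjusted p = 0.00537 and 0.000685). The intermediate filament gene Des rose 1.53-fold in KO hearts (adjusted p = 0.009) and was 1.31-fold higher in WT MI hearts (adjusted p = 0.0536). The median log2 fold change of the list was -0.13 in KO and -0.24 in WT hearts.

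Partners of Xin and filamin C at the disc and at the Z-disc moved both ways. Of 22, in KO MI hearts 4 rose and 5 fell, and in WT MI hearts 6 rose and 8 fell, with medians of 0.03 and -0.18. Fblim1, a filamin-binding adhesion protein, fell by 0.87 in KO and by 1.45 in WT hearts (adjusted p = 0.00105 and 3.33e-05). The thin-filament protein gene Nebl fell by 0.64 in KO and by 1.15 in WT hearts (adjusted p = 0.0136 and 0.000373), and Synpo2, which takes part in filamin turnover, by 0.80 in KO and by 1.08 in WT hearts (adjusted p = 0.00351 and 0.0004). Tln1, the talin that links integrins to actin in most cells, rose 2.25-fold in KO and 1.91-fold in WT hearts (adjusted p = 0.000329 and 0.000669).

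The chaperones that escort damaged filamin to degradation were tested as a list of 11, of which 4 rose and 0 fell in each genotype. Hspb1, a small heat shock protein, rose 7.65-fold in KO and 5.80-fold in WT hearts (adjusted p = 2.13e-06 and 2.16e-06). Cryab, another small heat shock protein, rose 1.39-fold in KO and 1.51-fold in WT hearts, and Hspa4, of the Hsp110 family, 1.51-fold in KO and 1.38-fold in WT hearts. The autophagy receptor gene Sqstm1 rose by 0.48 in KO and by 0.59 in WT hearts on the log2 scale. Bag3, the cochaperone at the centre of this route, was chosen for mention after its values were seen. It differed by 0.29 in KO (adjusted p = 0.166) and by 0.36 in WT hearts (adjusted p = 0.0689).

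Genes of the gp130 cytokine axis, which is known to drive Sprr1a in cardiomyocytes, rose in 9 of 13 members in KO and in 10 of 13 in WT MI hearts, and Lifr fell in both. Il6 rose 14.3-fold in KO and 20.9-fold in WT hearts (adjusted p = 3.32e-06 and 8.78e-07), with signals of 2.80 in KO sham and 2.68 in WT sham, near the low end of the array, so the folds are uncertain. The feedback inhibitor Socs3 rose 5.73-fold in KO and 8.74-fold in WT hearts (adjusted p = 1.34e-05 and 2.34e-06), and the oncostatin M receptor gene Osmr 3.32-fold in KO and 3.91-fold in WT hearts (adjusted p = 1.63e-05 and 4.93e-06). Its ligand Osm rose 2.99-fold in KO and 3.98-fold in WT hearts (adjusted p = 0.000968 and 0.000162). The median log2 fold change of the list was 1.10 in both genotypes.

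The list around YAP-TEAD and MRTF-SRF, both of which respond to tension, held the factors, their targets, cofactors and regulators, inhibitors included. Of its 26 members, 8 rose and 4 fell in KO MI hearts, and 7 rose and 5 fell in WT MI hearts. The medians were 0.19 and 0.11, and the counts take no account of these roles. The matricellular genes Ccn2 and Ccn1, targets of YAP, rose 6.09-fold and 2.68-fold in KO and 4.35-fold and 3.05-fold in WT hearts (adjusted p at most 0.000326). The alpha-actinin gene Actn1 rose 4.34-fold in KO and 3.79-fold in WT hearts (adjusted p = 3.03e-05 and 3.48e-05). Myl9, a smooth muscle light chain, fell by 1.59 in WT MI hearts (adjusted p = 0.000244) and differed by -0.34 in KO MI hearts (adjusted p = 0.257). The genotypes differed in Myl9 mainly in sham hearts, with signals of 8.13 and 8.78 in WT sham and 6.95 and 7.10 in KO sham. KO minus WT was -1.43 in sham hearts (adjusted p = 0.0634) and -0.18 after MI (adjusted p = 0.769). The skeletal actin gene Acta1, an SRF target, was the gene of this list that passed between KO sham and WT sham hearts, where it fell by 3.02 (adjusted p = 0.00212).

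Of 8 measured wall stress genes other than the ankyrin repeat genes, 6 rose in KO and 6 in WT MI hearts, and 0 and 1 fell, with medians of 1.71 and 1.46. Nmrk2, a muscle kinase for NAD precursors, rose 20.4-fold in KO and 25.6-fold in WT hearts. Tnfrsf12a, the TWEAK receptor gene, rose 4.24-fold in KO and 5.99-fold in WT hearts. The natriuretic peptide genes Nppa and Nppb rose 17.0-fold and 11.4-fold in KO and 3.12-fold and 5.89-fold in WT hearts. Mybpc2 was the one that fell, by 1.40 in WT MI hearts. The slow myosin gene Myh7 was higher in KO MI than in WT MI hearts by 1.84 on the log2 scale (adjusted p = 0.0447). In sham hearts Myh7 was higher in KO by a similar 1.79 (adjusted p = 0.076). Averaged over both conditions the difference was 1.82 (adjusted p = 0.00529), and the difference of responses was 0.05 (adjusted p = 0.976). Nppa was lower in KO sham than in WT sham hearts by 2.31 on the log2 scale (adjusted p = 0.0154). Nppa is also an atrial marker, and 7 of the 8 atrial markers, Nppa included, lay lower in KO sham than in WT sham hearts, with a median of -0.88. The part of atrial tissue in the Nppa difference was not tested.

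**Figure D5:**
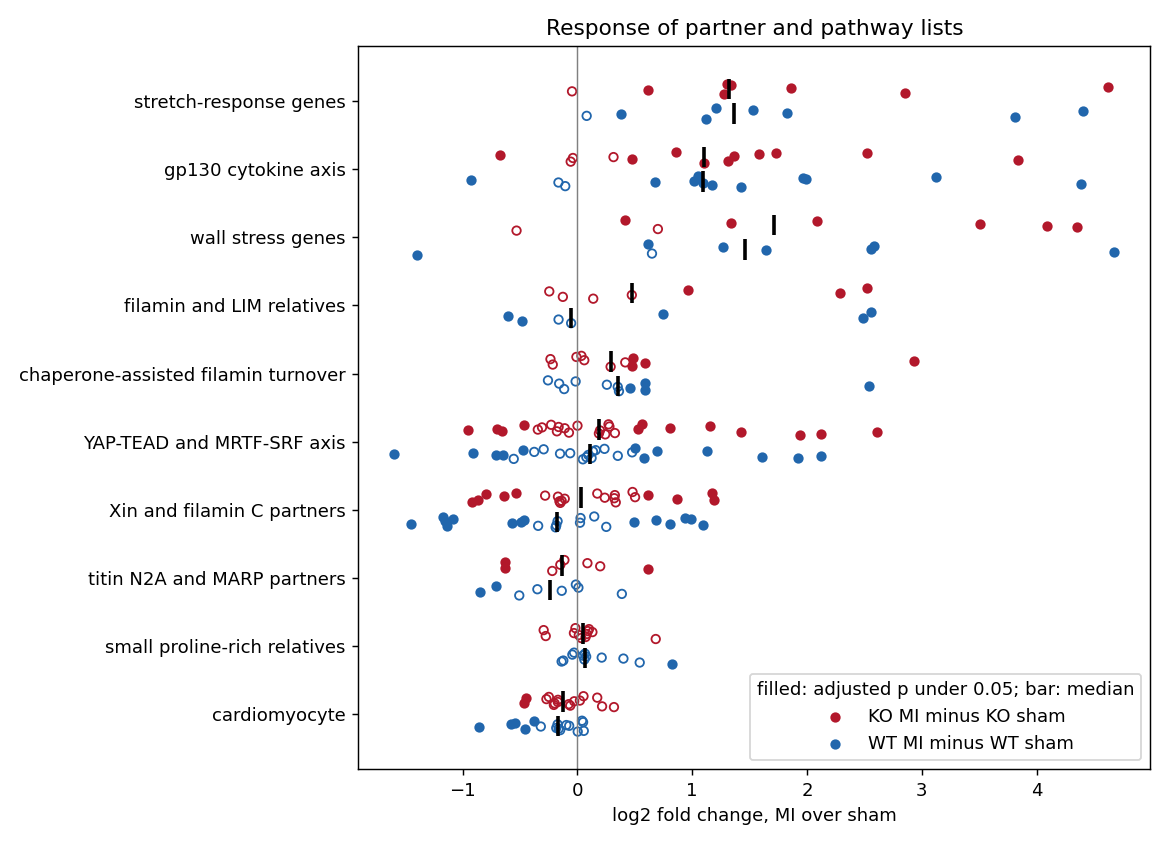
Log2 fold change of MI over sham for the members of each list, KO hearts in red above WT hearts in blue, with filled points past the adjusted threshold and a black bar at the median. Of the lists drawn, the stretch-response, gp130 and wall stress lists have medians above 1, and those of the other lists lie between -0.24 and 0.47. Neutrophil and macrophage markers, not drawn, have medians of 3.64 and 2.33 in KO and 4.83 and 2.23 in WT hearts.

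Markers of other cells moved with infarction too, where 20.8% of all genes were called in KO MI and 28.1% in WT MI hearts. Of 12 neutrophil markers, 11 rose in KO MI and 12 in WT MI hearts, with mean log2 signals of 7.65 and 7.91 on the KO MI arrays, 4.18 and 4.02 in KO sham, 8.48 and 9.11 in WT MI and 3.97 and 4.12 in WT sham hearts. Of 12 macrophage markers, 8 rose in each genotype, with mean signals of 8.14 and 8.07 in KO MI, 5.86 and 6.07 in KO sham, 8.54 and 7.98 in WT MI and 6.01 and 5.96 in WT sham hearts. Of 16 cardiomyocyte markers, 0 rose and 2 fell in KO, and 0 rose and 5 fell in WT MI hearts, with median log2 fold changes of -0.12 and -0.17. Of 12 smooth muscle and pericyte markers, 0 rose in either genotype, 4 fell in KO and 8 in WT, and of 10 fibroblast markers 1 rose and 1 fell in KO and 5 fell in WT MI hearts. Of 8 endothelial markers 3 fell in KO and 2 in WT MI hearts. The part of these cells in the rises of the 8 genes was not tested. Between KO MI and WT MI hearts all 12 neutrophil markers lay below 0 (median -0.97), and 0 passed. Of the macrophage markers Chil3 fell in that comparison (adjusted p = 0.0248).

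Atrial markers varied among sham hearts, with mean signals of 6.28 and 6.48 in KO MI, 6.95 and 6.10 in KO sham, 6.38 and 6.49 in WT MI and 6.89 and 7.87 in WT sham hearts. Of 8, 1 rose and 1 fell in KO, and 1 rose and 4 fell in WT MI hearts. Their part in the sham values of the 8 genes was not tested.

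The 8 genes did not share 1 profile. Likeness was measured as the root mean square difference between profiles over the 8 arrays, each centred on its mean, in log2 units. The closest pair was Ankrd1 and Xirp2 (0.153), followed by Ankrd1 and Xirp1 (0.19) and by Xirp1 and Flnc (0.22). Sprr1a and Ankrd2 were nearest to each other (0.757) and lay at least 0.813 from every other member. By the same measure over all genes, the 3 outside the list nearest to Sprr1a were Tnc (0.424), Clec4d (0.475) and Ccl3 (0.491). Those nearest to Ankrd2 were Myc (0.14), Slc7a11 (0.2) and Il1f9 (0.215). Ankrd1 lay nearest to Cd300c2 (0.084), Spred3 (0.088) and Ppp1r14b (0.09). Xirp1 lay nearest to Ndrg1 (0.069), Qsox1 (0.093) and Pi15 (0.093), and Xirp2 to Hsp90aa1 (0.083), Prelid1 (0.087) and Prmt2 (0.093). Flnc lay nearest to Rmrp (0.082), Nop58 (0.101) and Tnfrsf1b (0.103). By this measure any gene with a like difference between MI and sham arrays lies near, whatever its function.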

How the data were processed

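Heart RNA was labelled with biotin and read on 8 Affymetrix Mouse Gene ST arrays, per the labels' protocols. The deposited values are log2 signals, which the authors produced by RMA in Affymetrix Expression Console, per the submitters' processing notes. Versions were not given in the sources used here, and detection calls were not used. Array medians over 35556 probe sets lay between 5.004 and 5.253. Precision is limited by having 2 arrays a group, which carry no read depth.

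Probe sets with 1 gene in the platform annotation were kept (21789, of which 21698 matched RefSeq by Entrez ID), and 1621 with several genes and 12146 not listed there were left out. Each gene was read at its probe set with the highest mean signal, with no minimum level. The 8 arrays entered a single fit of 4 group means in limma 3.58.1 (R 4.3.3), with two-sided tests and 4 residual and 5.57 prior degrees of freedom. The averaged genotype effect had condition as an additive term. By an exact permutation test, 2 arrays against 2 cannot reach a two-sided p under 0.333. From each list of partners or markers the rule took up to 4 genes with the smallest p past the threshold, and all LIM and filamin relatives, of which those that a result turns on are printed. Likeness was listed for members whose group means spanned at least 1 log2 unit, leaving out clone, predicted and Riken names. Outside the rule, Bag3, Lifr, Mybpc2, Myot, the keratin genes other than Krt5 and the fast-fibre genes not called were chosen after their values were seen. Members and lists were chosen with earlier results of these data known. The code was tested on simulated data. Python 3.11.15 with matplotlib 3.10.9 drew the figures.

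The alternatives covered limma's options (a prior that follows intensity, a robust prior, weighted arrays), the probe sets (the lowest 33.3% of genes dropped, probe sets of a gene averaged, every probe set tested), the scaling (loess between arrays, medians set equal), the design (fits of the compared groups only, replicate numbers as blocks), a minimum of 2-fold, and omission of each array, after which a group with 1 array borrows its spread from the rest. Joint omission of WT MI replicate 2 and KO sham replicate 1 was added after seeing the data.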

Additional observations from a re-analysis of the deposited data

How the results depend on the processing

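The counts of the 8 genes kept their side under every alternative run. In KO MI against KO sham the count was 7, and 6 without KO MI replicate 1 or with a 2-fold minimum. In WT MI against WT sham it was 7, and 6 wherever Csrp3 was lost and with a 2-fold minimum. Leaving out 1 array in turn gave 6 to 7 in both. The 4 comparisons of genotypes and of responses gave 0 throughout. Sprr1a, Ankrd1, Ankrd2, Xirp1, Xirp2 and Flnc passed in both genotypes under every alternative, with a highest adjusted p of 0.00297, for Xirp1 in KO. Among differences that passed nowhere, some turned sign. With cyclic loess Sprr1a became 0.0093 between KO sham and WT sham, Ankrd1 -0.0056 between KO MI and WT MI, and the difference of responses -0.013 for Xirp2 and -0.074 for Flnc. Without both KO sham replicate 1 and WT MI replicate 2, Sprr1a became 0.43 between KO sham and WT sham, and the difference of responses -0.38 for Sprr1a and -0.17 for Flnc. Leaving out 1 array in turn, Sprr1a ranged from -0.43 to 0.43 between KO sham and WT sham, from -0.47 to 0.91 between KO MI and WT MI, from -0.47 to 0.91 for the difference of responses and from -0.19 to 0.36 averaged over conditions. Flnc ranged from -0.12 to 0.18 for the difference of responses, and Ankrd2 from -0.12 to 0.23 averaged over conditions. The cause was not tested. The counts over all genes moved more: 2246 without KO MI replicate 2 and 2305 without KO MI replicate 1 against 4142 in KO MI, 3457 and 3462 without WT sham replicate 1 and 2 against 5609 in WT MI, 2 to 63 against 14 between KO MI and WT MI, 3 to 34 against 6 between KO sham and WT sham, 2 to 13 against 11 averaged, and 0 to 4 against 0 for the difference of responses. With a 2-fold minimum they were 1026 and 1670 in KO and WT MI. Replicate numbers recur across groups, and the labels do not say what they stand for. Deviations from the group means of same-numbered arrays correlated between -0.187 and 0.156. With 2 arrays a group, these values cannot show whether same-numbered arrays share a batch. With the replicate block the counts of the 8 genes were 7 in KO MI, 6 in WT MI and 0 elsewhere, and over all genes 3811 and 5248 in KO and WT MI, 5 between KO MI and WT MI and 3 averaged. No scaling moved the median of all genes by over 0.1.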
